A study of Mus musculus with 36 samples.

Results

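The expression of 10 cytokine genes was followed through the conversion of mouse B cells into macrophages (BMT), namely the interleukin-1 family genes Il1a, Il1b, Il1rn and Il18, the genes Tnf, Il6, Osm and Il12b, and the regulatory cytokine genes Il10 and Tgfb1. They were taken by name, with earlier results of these data known, and are 10 of the 40354 genes in the count tables. B cells isolated from bone marrow of C57BL/6J mice received, by retrovirus, C/EBPα fused to the estrogen receptor (ER) together with a human CD4 marker, were kept over mouse embryonic fibroblast (MEF) feeders and enriched for hCD4-positive cells, which the labels describe as plated on inactivated MEFs with IL-7. The factor was the wild type or carried alanine (R35A) or lysine (R35K) in place of arginine 35, and 17ß-estradiol releases the ER fusion into the nucleus. Cells of each of the 3 constructs were collected before induction (0 hours post induction, hpi), at 1, 3 and 6 hpi, and at 18 and 120 hpi, in 2 biological replicates, which gives 18 groups and 36 RNA-seq libraries. Every group thus carries the ER fusion and the hCD4 marker and was cultured with feeders. By the study's methods the induction was done on inactivated MEFs with IL-7, IL-3, FLT-3, CSF-1 and SCF, and the medium used to refresh the cultures every other day lacked IL-7, so that exposure to IL-7 may differ between early and late timepoints. Whether the cells at 0 hpi were already in that medium, and the age of the mice, are not given in the sources used here.

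These genes encode secreted signals of innate immunity. IL-1α and IL-1β act through a shared receptor that IL-1Ra, the product of Il1rn, occupies without signalling, and IL-1β and IL-18 are made as precursors that caspase-1 cleaves. TNF is released from the cell surface by ADAM17 and, like IL-1 and IL-6, is made in bursts by macrophages that sense microbes, while IL-10 restrains that response. IL-6 and oncostatin M (OSM) both signal through gp130, IL-12p40 (Il12b) is a subunit shared by IL-12 and IL-23, and TGF-β1 is stored in a latent form. A C/EBP factor, C/EBPβ, was also named NF-IL6 for its binding at the Il6 gene, and macrophage enhancers are commonly bound by C/EBP factors together with PU.1.

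The 250 bases before the start site are shown for Il1a, Il1b, Il6 and Tnf, which rose early in all constructs, and for Tgfb1, which did not. The windows of Il1rn, Il18 and Il12b were searched and are not shown. The sequences are from RefSeq (GRCm38.p6, the mm10 assembly), read 5′ to 3′ on the strand of the gene, with matches to the motifs searched in capitals.

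Il1a (chr2:129309973-129310222, minus strand): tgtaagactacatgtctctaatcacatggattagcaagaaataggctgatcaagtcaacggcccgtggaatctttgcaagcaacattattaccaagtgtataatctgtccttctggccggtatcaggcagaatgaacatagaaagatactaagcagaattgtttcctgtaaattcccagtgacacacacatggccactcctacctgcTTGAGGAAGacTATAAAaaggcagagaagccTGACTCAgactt
Il1b (chr2:129371140-129371389, minus strand): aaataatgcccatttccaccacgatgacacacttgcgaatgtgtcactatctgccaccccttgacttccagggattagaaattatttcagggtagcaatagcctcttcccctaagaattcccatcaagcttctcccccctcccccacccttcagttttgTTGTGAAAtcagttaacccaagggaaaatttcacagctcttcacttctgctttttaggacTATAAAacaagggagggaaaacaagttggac
Il6 (chr5:30012864-30013113, plus strand): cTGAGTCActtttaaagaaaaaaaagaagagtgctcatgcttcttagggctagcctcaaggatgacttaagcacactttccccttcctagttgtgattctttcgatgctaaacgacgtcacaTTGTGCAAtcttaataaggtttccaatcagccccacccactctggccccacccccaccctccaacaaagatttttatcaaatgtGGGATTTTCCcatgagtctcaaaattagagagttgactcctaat
Tnf (chr17:35202008-35202257, minus strand): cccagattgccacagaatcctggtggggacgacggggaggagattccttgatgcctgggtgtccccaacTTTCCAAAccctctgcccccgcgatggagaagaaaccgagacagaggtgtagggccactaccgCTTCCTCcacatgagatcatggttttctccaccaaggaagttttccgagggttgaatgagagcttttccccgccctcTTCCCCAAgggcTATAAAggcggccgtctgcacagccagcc
Tgfb1 (chr7:25686752-25687001, plus strand): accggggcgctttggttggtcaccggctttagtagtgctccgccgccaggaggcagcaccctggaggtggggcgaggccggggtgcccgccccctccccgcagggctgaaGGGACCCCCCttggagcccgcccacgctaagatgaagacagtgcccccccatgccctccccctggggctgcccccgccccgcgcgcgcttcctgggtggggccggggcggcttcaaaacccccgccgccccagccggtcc

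The motifs searched on both strands were C/EBP (TTNNGNAA), PU.1 (GAGGAAG), AP-1 (TGANTCA), the TATA box (TATAAA) and an NF-kB consensus. Counted from the start site, with -1 as the last base before it, a C/EBP match began at -43 in Il1a, at -91 in Il1b, at -128 in Il6 and at -181 and -41 in Tnf, and none was found in Tgfb1. The Il1a match overlapped a PU.1 match that began at -41, and another PU.1 match lay in Tnf at -118. A TATA box match began at -32 in Il1a, -31 in Il1b and -29 in Tnf, and an NF-kB match at -44 in Il6 and at -140 in Tgfb1. The windows of Il18 and Il12b held no C/EBP match. RefSeq lists 3 start sites for Il1rn, and at 2 of them the 250 bases held a C/EBP match. These 2 windows overlap, and the same match (TTGGGGAA) lies in both, at -81 and at -161. A C/EBP match was found in 6 of the 10 sequences, which belong to 5 of the 8 members listed, and in 36.8% of all 32851 mouse promoters of this length. A PU.1 match was found in 2 of the 10 and in 10.6% of all promoters, an AP-1 match in 3 and 6.75%, a TATA box match in 4 and 12.4%, and an NF-kB match in 2 and 7.25%. These matches describe letters in the window and were not tested as binding sites. The promoters of Il10 and Osm were not analysed here.

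The libraries held between 13044456 and 23131776 reads counted on genes, and levels are given as CPM, the counts relative to the library total with TMM scaling across the 36 libraries. A count of 3 was taken as the detection floor of a library. The starting cells carried B cell markers, whose summed level was 3486 to 3822 CPM over 8 genes at 0 hpi and 60.7 to 125 CPM at 120 hpi. The summed level of the macrophage list was 64.3 to 71.9 CPM at 0 hpi and 17880 to 29490 CPM at 120 hpi. The libraries also held RNA of fibroblast markers. The summed level of the 10 feeder fibroblast markers was 6873 to 7346 CPM at 0 hpi, 8321 to 17150 CPM from 1 to 18 hpi and 8077 to 9083 CPM at 120 hpi, where Fn1 made up nearly all of it in wild-type cells (mean 8785 CPM) and Lum was at 0. These are bulk libraries, in which fewer cells of a type and less RNA per cell cannot be told apart.

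Calls required a change of 1.5-fold or more in either direction and an adjusted p (Benjamini-Hochberg, over all genes of the fit) no greater than 0.05. Of the 10 members, 9 passed the filter on low counts, and Il12b, at 0 to 4 counts in every library, was not tested. In wild-type cells 6 members were above their 0 hpi level at 1 hpi and 1 was below it, where 19.9% of all genes tested were called in either direction. The counts in wild-type cells were 5 up and 1 down at 3 hpi (23.5% of all genes), 6 and 1 at 6 hpi (29.8%), 6 and 2 at 18 hpi (47.1%) and 9 and 0 at 120 hpi (63.3%). The median change of the 9 members in wild-type cells was 1.38 on the log2 scale at 1 hpi and 7.01 at 120 hpi, against -0.01 and -0.36 over all genes. In R35A cells 7 members were higher and 1 was lower at each of 1, 3, 6 and 18 hpi, where 37.3%, 36.8%, 37.7% and 42.6% of all genes were called, and 9 were higher at 120 hpi (63.1%). In R35K cells 7 rose and 1 fell at 1 hpi (32.9%), 3 hpi (32.7%) and 6 hpi (34.1%), 7 rose and none fell at 18 hpi (39%), and 9 rose by 120 hpi (63.8%). From 18 to 120 hpi, all 9 tested members rose with each construct, where 60.5% (wild type), 53.9% (R35A) and 53.3% (R35K) of all genes were called.

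**Figure D1:**
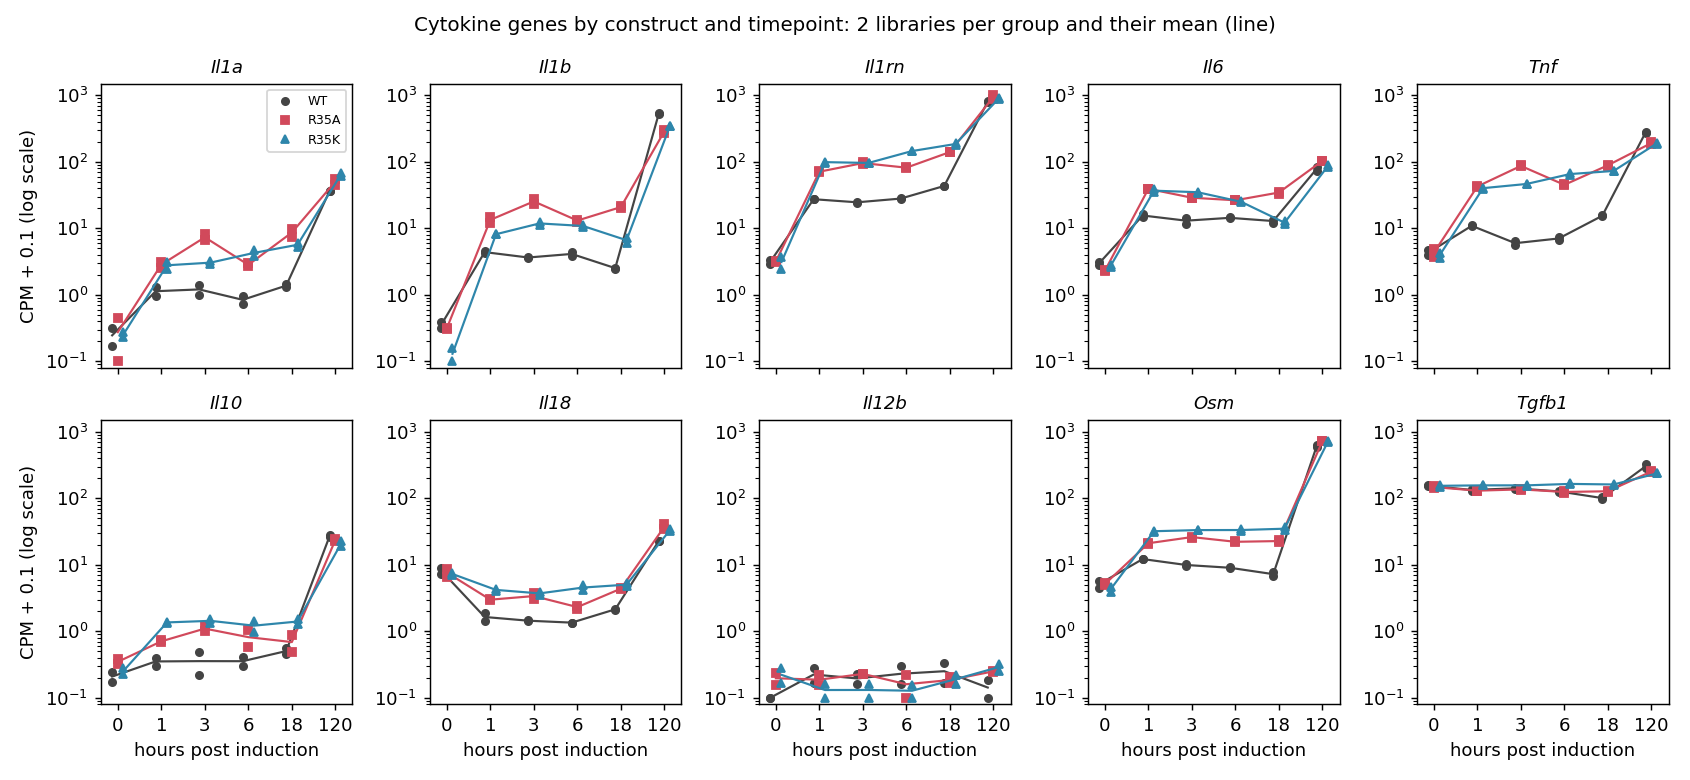
Level of each cytokine gene (CPM + 0.1, log scale) against hours post induction for the wild-type (circles), R35A (squares) and R35K (triangles) constructs, with a point for each of the 2 libraries per group and a line through their mean. Between 1 and 18 hpi the lines of both mutants lie above the wild-type line for Il1a, Il1b, Il1rn, Tnf, Osm and Il18. For Il6 the R35K line meets the wild-type line at 18 hpi, and Il12b stays at the bottom of the axis.

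Il1b had the widest range of the members. Wild-type cells held 3 and 4 counts at 0 hpi (0.214 and 0.293 CPM), 4.47 and 4.10 CPM at 1 hpi, 2.46 and 2.37 CPM at 18 hpi, and 534 and 519 CPM at 120 hpi. The early level was thus 16.9-fold that at 0 hpi at 1 hpi and 9.54-fold at 18 hpi, and the late level 2080-fold. The 0 hpi counts are near the floor, so these folds are imprecise and not comparable with lower bounds set from the floor. R35A cells began alike, with 0.209 and 0.217 CPM, and held 14.5 and 12.1 CPM at 1 hpi, 23.1 and 27.4 CPM at 3 hpi, 12.5 and 13.4 CPM at 6 hpi, 20.1 and 21.4 CPM at 18 hpi and 272 and 302 CPM at 120 hpi. In R35K cells, with 1 and 0 counts at 0 hpi, the level was 8.05 and 8.04 CPM at 1 hpi, 11.1 and 12.4 CPM at 3 hpi, 7.13 and 5.90 CPM at 18 hpi and 349 and 347 CPM at 120 hpi, at least 43-fold that at 0 hpi at 1 hpi and at least 1860-fold at 120 hpi when 3 counts per library are taken as the floor. The groups of the 3 constructs did not overlap at any time from 1 hpi on. R35A cells were highest from 1 to 18 hpi and wild-type cells were highest at 120 hpi.

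Il1a, which lies 54.6 kb from Il1b on chromosome 2 (mm10, 129299610 to 129309972), was 18.6 CPM per kb of exon in wild-type cells at 120 hpi, against 276 for Il1b. It held 1 and 3 counts in wild-type cells at 0 hpi, 1.22 and 0.844 CPM at 1 hpi, 1.36 and 1.19 CPM at 18 hpi and 36.6 and 36.9 CPM at 120 hpi. In R35A cells it stood at 3.03 and 2.46 CPM at 1 hpi, 6.47 and 7.97 CPM at 3 hpi, 2.88 and 2.57 CPM at 6 hpi, 9.68 and 7.38 CPM at 18 hpi and 44.9 and 56.0 CPM at 120 hpi. R35K cells rose in steps from 2.38 and 2.97 CPM at 1 hpi to 6.01 and 5.09 CPM at 18 hpi and to 60.5 and 68.7 CPM at 120 hpi. In R35A cells, Il1a and Il1b were higher at 3 and 18 hpi than at 1 and 6 hpi, with no overlap between the libraries; this difference between timepoints was not tested. Antisense genes overlap both genes, Gm14023 in Il1a with at most 66 counts and Il1bos in Il1b with at most 29, and the strand used in counting is not given in the sources used here.

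Il1rn, which encodes the IL-1 receptor antagonist, was at 2.85 and 3.22 CPM in wild-type cells at 0 hpi, 27.5 and 27.0 CPM at 1 hpi, 43.2 and 43.3 CPM at 18 hpi and 799.8 and 812 CPM at 120 hpi. The level at 1 hpi was 8.99-fold that at 0 hpi (log2 change 3.18, SE 0.112). R35A cells reached 69.7 and 72.1 CPM at 1 hpi and 139 and 142 CPM at 18 hpi, and R35K cells reached 97.4 and 100.2 CPM and then 192 and 179 CPM. At 120 hpi R35A cells held 883 and 1014 CPM and R35K cells 885.5 and 923 CPM. Il1rn in wild-type cells at 18 hpi was therefore still below R35A and R35K cells at 1 hpi, in every library.

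Il18 fell at first. It stood at 7.20 and 9.0 CPM in wild-type cells at 0 hpi, 1.76 and 1.33 CPM at 1 hpi, 1.25 and 1.25 CPM at 6 hpi and 2.01 and 2.08 CPM at 18 hpi, and then reached 22.5 and 22.8 CPM at 120 hpi. The fall by 2.39 on the log2 scale at 1 hpi (SE 0.20, adjusted p = 7.87e-15) was smaller in R35A cells, where Il18 fell by 1.42 to 2.91 and 2.87 CPM, and in R35K cells, where it fell by 0.80 to 3.93 and 4.27 CPM. At 120 hpi R35A cells held 34.3 and 40.5 CPM and R35K cells 32.5 and 34.2 CPM, above the wild-type libraries. Bco2, a gene that overlaps Il18 on the opposite strand, had at most 237 counts, and at most 22 at 0 hpi. Markers of other cell types moved in the same first hour. With the wild type the 6 neutrophil markers summed to 42.4 to 43.9 CPM at 0 hpi and 1.76 to 1.87 CPM at 1 hpi. Elane was at 0 at 1 hpi, and all 5 markers tested fell, where 19.9% of all genes were called. With R35A the sum was 33.3 to 34.3 CPM and then 2.34 to 3.08 CPM. With R35K it was 34.5 to 37.8 CPM and then 3.22 to 3.48 CPM. The 5 mast cell or basophil markers summed to 26.5 to 29.4 CPM and then 54.1 to 55.7 CPM with the wild type. Most of this sum was Kit (mean 19.0 and then 38.1 CPM) and Mcpt8 (8.53 and then 16.2 CPM). Fcer1a was at 0 at both times and Cpa3 at 1 hpi, and Ms4a2 was not called. With R35A and R35K, Mcpt8 changed by 1.75 and 1.44 on the log2 scale and Kit by -0.57 (not called) and -0.65. Whether cells with these markers had a part in the changes of Il18 and the other members was not tested.

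Tnf gave the largest difference between R35A and wild-type levels of any member. It was at 4.56 and 3.81 CPM in wild-type cells at 0 hpi, 10.7 and 10.9 CPM at 1 hpi, 6.27 and 5.48 CPM at 3 hpi, 7.21 and 6.65 CPM at 6 hpi, 15.1 and 15.6 CPM at 18 hpi and 285 and 275 CPM at 120 hpi. The change at 3 hpi, 0.48 on the log2 scale (SE 0.146, adjusted p = 0.00897), did not reach 1.5-fold. R35A cells held 42.3 and 42.7 CPM at 1 hpi, 85.3 and 88.1 CPM at 3 hpi, 45.7 and 44.2 CPM at 6 hpi, 87.3 and 90.0 CPM at 18 hpi and 187 and 197 CPM at 120 hpi. R35K cells climbed from 39.3 and 40.8 CPM at 1 hpi to 72.3 and 73.2 CPM at 18 hpi and 195 and 186 CPM at 120 hpi. The R35A libraries at 3 and 18 hpi thus stood at about the same level, with a lower level at 6 hpi between them, whereas the R35K libraries were higher at each later time.

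Among the genes of gp130 cytokines, Il6 rose at once in wild-type cells, stayed near that level to 18 hpi and rose again by 120 hpi. It was at 3.06 and 2.71 CPM at 0 hpi, 14.7 and 16.3 CPM at 1 hpi, 11.7 and 14.1 CPM at 3 hpi, 13.4 and 12.1 CPM at 18 hpi and 73.2 and 84.0 CPM at 120 hpi. R35A cells held 39.2 and 39.0 CPM at 1 hpi and 33.2 and 35.6 CPM at 18 hpi. R35K cells held 34.7 and 38.7 CPM at 1 hpi but fell back to 12.6 and 11.5 CPM at 18 hpi, which overlapped the wild-type libraries at that time. All constructs reached 73.2 to 104 CPM at 120 hpi. Il6 is also made by fibroblasts, and of the 10 feeder markers 9 (wild type), 8 (R35A) and 6 (R35K) rose from 0 to 1 hpi. Their median changes were 0.99, 1.05 and 0.87 on the log2 scale. Of all genes, 19.9%, 37.3% and 32.9% were called in these comparisons, with medians of -0.01, -0.01 and -0.04. The part of the feeder cells in the level of Il6 was not tested.

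In wild-type cells Osm rose at 1 hpi, was under 1.5-fold of its starting level at 18 hpi and rose again by 120 hpi. It was at 4.42 and 5.64 CPM at 0 hpi, 12.1 CPM in both libraries at 1 hpi, 7.64 and 6.65 CPM at 18 hpi, where its change of 0.52 on the log2 scale (SE 0.126, adjusted p = 0.00119) did not reach 1.5-fold, and 629 and 601 CPM at 120 hpi. R35A cells held 20.6 and 21.4 CPM at 1 hpi and 22.0 and 23.4 CPM at 18 hpi, and R35K cells 32.7 and 31.2 CPM and then 33.1 and 36.6 CPM. From 1 to 18 hpi the order was R35K, R35A and wild type, with no overlap between libraries. At 120 hpi the mutants held 710 to 732.5 CPM, and neither mutant differed from the wild type by 1.5-fold (R35A level 0.20 on the log2 scale, SE 0.0335, adjusted p = 1.34e-06; R35K change 0.45, SE 0.15, adjusted p = 0.0433).

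Il10 was near the floor until 18 hpi. Wild-type cells held 1 to 7 counts per library from 0 to 18 hpi and 330 and 327 counts (26.5 and 27.9 CPM) at 120 hpi, at least 125-fold that at 0 hpi. R35A cells held 4 to 17 counts and R35K cells 2 to 29 counts from 0 to 18 hpi, and both ended at 18.8 to 24.5 CPM. The early calls of Il10 rest on these few counts. Tgfb1 stayed within a narrow range, from 153 and 157 CPM in wild-type cells at 0 hpi. It was at 98.1 and 104 CPM in wild-type cells at 18 hpi, which passed the thresholds (log2 change -0.60, SE 0.0467, adjusted p = 1.63e-16) but not with DESeq2's size factors, and at 324 and 286 CPM at 120 hpi, 1.97-fold that at 0 hpi. In R35A cells it was at 125 and 130 CPM at 18 hpi, and in R35K cells at 159.8 and 164 CPM. Il12b had 0 to 4 counts in every library and reached no level above the floor of 3 counts in any group but wild-type cells at 18 hpi, which had 1 and 4 counts.

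Levels of different genes can be compared only per length. The length used counts every annotated exon base of a gene, 5535 for Il1rn with 6 transcripts and 1907 for Il1b with 3. Which transcripts the cells held was not examined, so the order of the genes depends on this length. Divided by the summed exon length of the gene, Il1b in wild-type cells at 120 hpi was at 276 CPM per kb, Osm at 271, Tnf at 171, Il1rn at 146, Tgfb1 at 60.5, Il6 at 32.4, Il18 at 22, Il10 at 20.8 and Il1a at 18.6. At 0 hpi the order was led by Tgfb1 at 30.8 CPM per kb, followed by Il18 at 7.86, Tnf at 2.55, Osm at 2.21 and Il6 at 1.19, with the other members under 0.6.

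To compare the mutant with the wild type directly, the levels of R35A and wild-type cells were tested at each time. At 0 hpi none of the 9 tested members was called with edgeR, none had an unadjusted p under 0.05, and 0% of all genes were called. Without adjustment 261 genes would have passed, and a DESeq2 Wald test called 1 gene. R35A cells were higher for 7 members at 1 hpi, where 19.3% of all genes differed, for 8 at 3 hpi (17%), for 8 at 6 hpi (13.7%) and for 7 at 18 hpi (10.1%), and no member was lower. The median difference of the members was 1.32, 1.98, 1.39 and 1.66 on the log2 scale, against -0.01 to 0 over all genes. The difference was 3.90 for Tnf at 3 hpi (SE 0.0755, adjusted p = 1.08e-40), 2.85 for Il1b (SE 0.114), 2.73 for Il1a (SE 0.248) and 1.98 for Il1rn (SE 0.0567) at the same time. It was smaller for Il6, between 0.87 and 1.42, for Osm, between 0.78 and 1.66, and for Il18, between 0.82 and 1.30. Tgfb1 differed by at most 0.33 in size up to 18 hpi and was not called.

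At 120 hpi the pattern was different. Il18 was still higher in R35A cells (0.68, SE 0.0887), and Il1b (-0.92, SE 0.0402, adjusted p = 2.13e-25) and Tnf (-0.59, SE 0.0402) were lower, while 18.8% of all genes differed. The Tnf value lies at the 1.5-fold threshold and was not called without a filter on low counts (-0.55) or without wild-type replicate 1 (-0.58). For Il1b the test of the change from 0 hpi gave -0.69 (SE 0.714, adjusted p = 0.55). The remaining 6 members lay between -0.31 and 0.42 and did not reach 1.5-fold. The B cell markers at 1 hpi summed to 1748 to 1784 CPM in wild-type cells, 524 to 531.5 CPM in R35A cells and 904 to 928 CPM in R35K cells, and the macrophage markers to 950.0 to 953.8, 3995 to 4029 and 8165 to 8198 CPM, so the markers of both cell types moved with the construct as well. At 120 hpi, 7 of the 10 feeder markers were higher in R35A than in wild-type cells and none was lower. The part of any of these in the differences of the cytokine genes was not tested.

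Because the R35K libraries were deposited in tables of their own, this construct and its tables cannot be told apart, and the change from 0 hpi was compared with that of wild-type cells. The rise was larger, or the fall smaller, in R35K cells for 6 members at each of 1, 3, 6 and 18 hpi, where 11.9%, 10%, 12.2% and 13.3% of all genes differed, and at 120 hpi, by this test of the change, for Il18 alone (0.68, SE 0.163; 10.1% of all genes). For Tnf the changes differed by 2.09, 3.14, 3.40 and 2.41 on the log2 scale at 1, 3, 6 and 18 hpi (SE 0.179 to 0.192), for Osm by 1.73, 2.05, 2.19 and 2.59 (SE 0.167 to 0.174) and for Il1rn by 1.95, 2.02, 2.43 and 2.16 (SE 0.194 to 0.197). Il6 differed by 1.46, 1.60 and 0.98 at 1, 3 and 6 hpi, and by 0.10 at 18 hpi (SE 0.233, adjusted p = 0.808). The fitted difference for Il1b was 3.72 to 4.50 from 1 to 18 hpi (SE 0.983 to 0.989). At 120 hpi it was 2.09 (SE 0.998, adjusted p = 0.18) and was not called. These values depend on the 1 and 0 counts of R35K cells at 0 hpi. The direct difference in the level of Il1b was 0.99, 1.77, 1.45 and 1.47 at 1, 3, 6 and 18 hpi. At 120 hpi it was -0.64, opposite in sign to the fitted difference. The direct differences had an adjusted p of at most 2.04e-08. Compared in this way, Tnf was also lower (-0.60, adjusted p = 1.65e-18) and Il1a higher (0.77) in R35K cells at 120 hpi, while Il18 (0.52) did not reach 1.5-fold. Il1a and Il10 did not pass the test of the change, with 5 counts or fewer per library at 0 hpi, and their levels at 3 hpi were higher in R35K than in wild-type cells by 1.46 and 2.39 on the log2 scale.

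**Figure D2:**
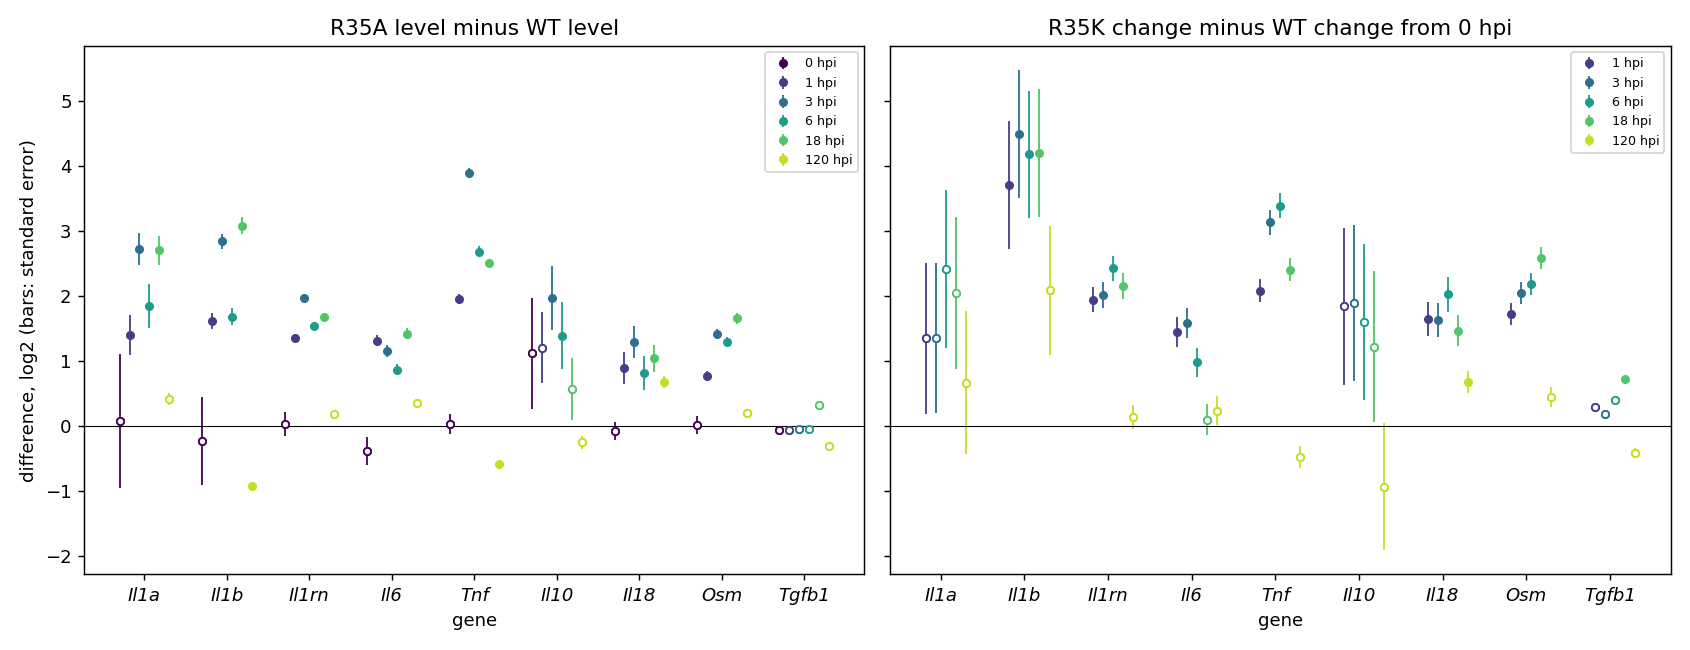
Differences between constructs for the 9 tested members on the log2 scale with their standard errors, as R35A level minus wild-type level (left) and as the R35K change from 0 hpi minus the wild-type change (right), coloured by timepoint. Filled points passed both thresholds and open points did not. Left, Tnf reaches 3.90 at 3 hpi and -0.59 at 120 hpi, while Tgfb1 stays between -0.31 and 0.33. Right, the points of Il1a, Il1b and Il10 have wide bars.

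The share of the final level that was already reached early differed between genes and constructs. It is the mean CPM of a group as a percentage of the 120 hpi mean of the same construct, a description for which no test was made. Between 1 and 18 hpi Tnf was at 2.10% to 5.47% of its 120 hpi level with the wild type, at 22.2% to 46.2% with R35A and at 21.1% to 38.3% with R35K. In the same order Il1b was at 0.459% to 0.813%, 4.51% to 8.80% and 1.87% to 3.37%. Il1rn was at 3.04% to 5.36%, 7.48% to 14.8% and 10.6% to 20.5%, and Osm at 1.16% to 1.97%, 2.89% to 3.58% and 4.43% to 4.83%. Il10 was at 0.928% to 1.49%, 2.49% to 4.23% and 5.39% to 6.47%. Il6 was the furthest ahead in wild-type cells, at 16.2% to 19.7%, among the members that rose early.

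**Figure D3:**
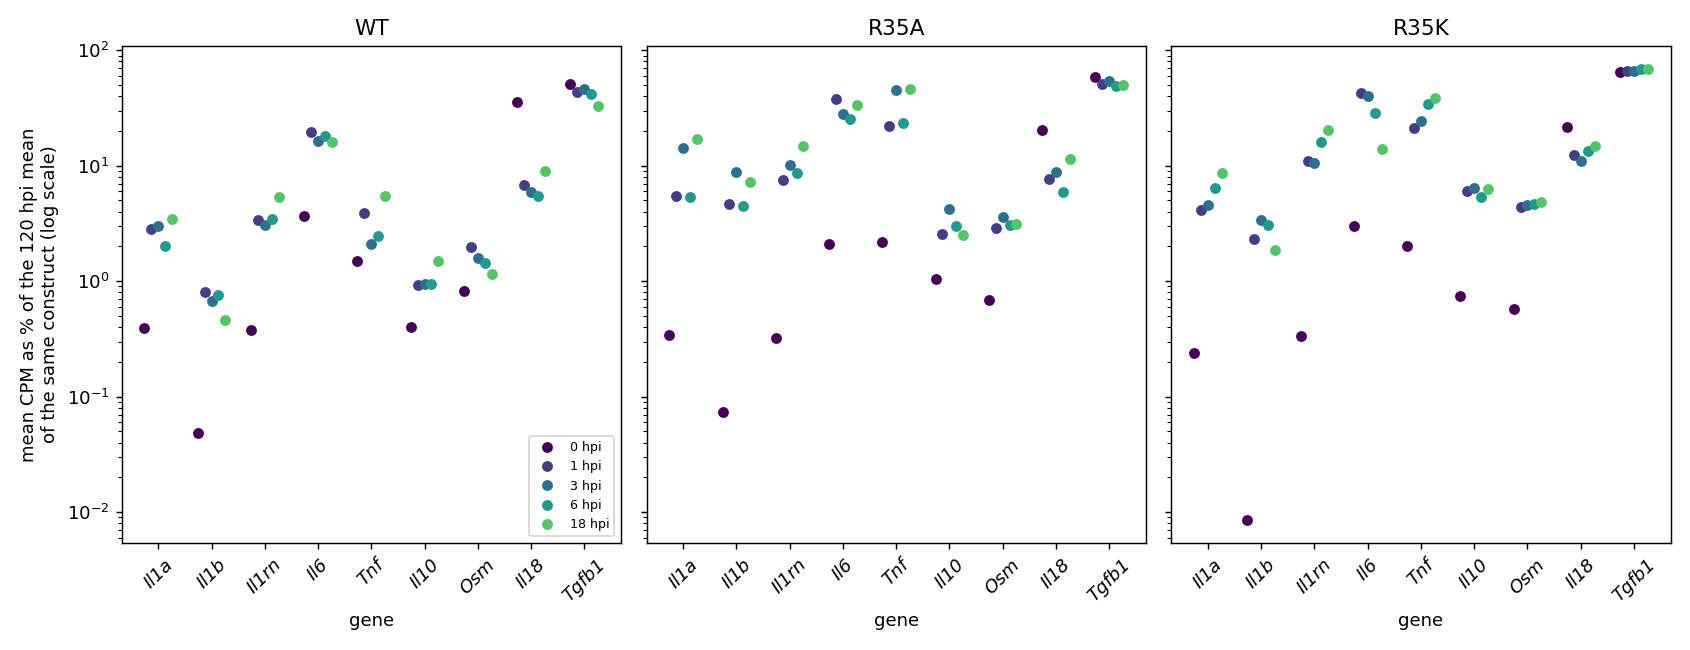
Mean CPM of 9 members at 0, 1, 3, 6 and 18 hpi as a percentage of the mean at 120 hpi of the same construct (log scale), 1 panel per construct. Between 1 and 18 hpi Tnf moves from 2.10% to 5.47% in the wild-type panel to 22.2% to 46.2% in the R35A panel, and Tgfb1 is at 33.1% or more in every panel.

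Il1b and its antagonist Il1rn did not keep a fixed ratio. Per length and within each library, Il1b was 0.471 and 0.441 times Il1rn in wild-type cells at 1 hpi, 0.165 and 0.159 times at 18 hpi and 1.94 and 1.86 times at 120 hpi. In R35A cells the ratio was 0.604 and 0.486 at 1 hpi, 0.422 and 0.438 at 18 hpi and 0.895 and 0.866 at 120 hpi. In R35K cells it was 0.240 and 0.233 at 1 hpi, 0.108 and 0.0959 at 18 hpi and 1.14 and 1.09 at 120 hpi. The constructs did not overlap at 18 or 120 hpi: R35A cells had the highest ratio at 18 hpi and the lowest at 120 hpi. No test was made on this ratio, and it is given as a description. Its size, and the side of 1 on which a library lies, depend on the exon lengths used (5535 bases for Il1rn and 1907 for Il1b).

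**Figure D4:**
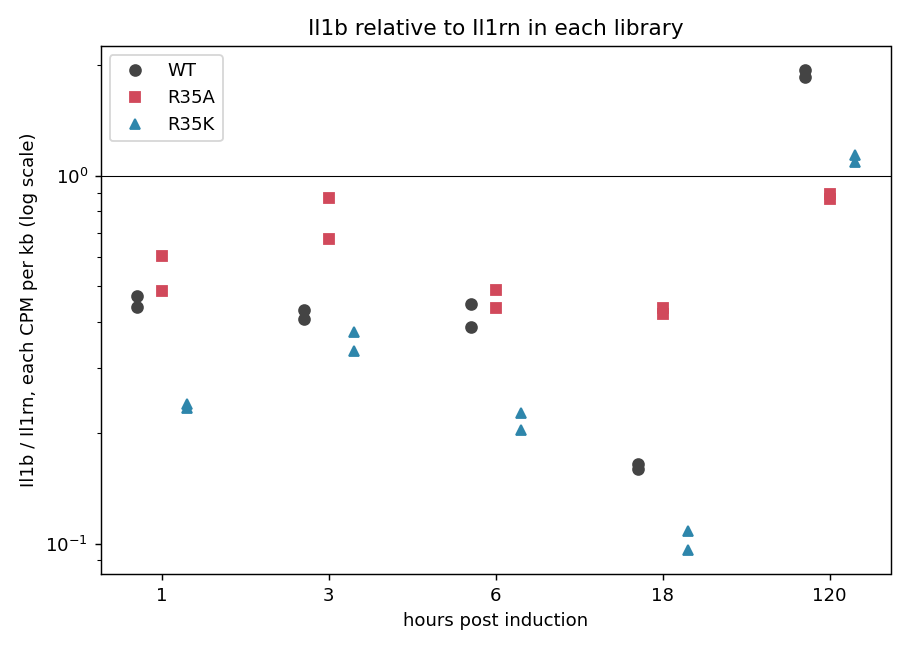
Ratio of Il1b to Il1rn, both in CPM per kb, in each library from 1 to 120 hpi (log scale; circles wild type, squares R35A, triangles R35K; the line marks a ratio of 1). All points from 1 to 18 hpi lie below 1, and at 120 hpi the wild-type libraries (1.94 and 1.86) and R35K libraries (1.14 and 1.09) lie above it and the R35A libraries (0.895 and 0.866) below. The position relative to 1 depends on the exon lengths used.

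Receptors and binding proteins of these cytokines moved in both directions. In wild-type cells 9 of 19 such genes rose and none fell by 1 hpi, where 19.9% of all genes were called, with a median change of 0.58 on the log2 scale, and 13 rose and 3 fell by 120 hpi (63.3% of all genes, median 1.59). In R35A cells 15 rose at 1 hpi (37.3%), and 7 were higher than in wild-type cells at that time (19.3%). Between 0 and 120 hpi the decoy receptor gene Il1r2 went from 1.55 to 106 CPM with the wild type (log2 change 6.16, SE 0.122), the TNF receptor gene Tnfrsf1b from 34.5 to 782 CPM and the IL-6 receptor gene Il6ra from 23.0 to 343 CPM. Il1r1, the signalling receptor of IL-1, went from 16 to 4.57 CPM, Osmr from 86.0 to 24.8 CPM and Tgfbr3 from 34.1 to 14.2 CPM. The last 3 are also expressed by fibroblasts, and in the same comparison 9 of the 10 feeder markers fell, by a median of 4.07 on the log2 scale, and Fn1 rose. At 120 hpi Il1r2 was at 29.7 CPM in R35A cells, lower than in wild-type cells by 1.87 on the log2 scale (SE 0.0723).

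Genes for the maturation and release of these cytokines moved in both directions by 120 hpi. Of 13 genes, 5 rose and none fell at 1 hpi in wild-type cells (19.9% of all genes called), and 8 rose and 5 fell at 120 hpi (63.3%). The inflammasome genes Pycard and Nlrp3 went from 4.76 to 70.9 CPM and from 58.3 to 755 CPM, and Nrros, which holds latent TGF-β1 on myeloid cells, from 77.1 to 601 CPM. Those that fell furthest were Ltbp1 and Lrrc32, which bind latent TGF-β1, and Itgav. Nlrp3 in wild-type cells first fell to 21.8 CPM at 18 hpi, when it was 74.0 CPM in R35A cells. The difference was 1.75 on the log2 scale (SE 0.0518). At 120 hpi Nlrp3 was lower in R35A cells by 0.92 (SE 0.032). For Il1b and Tnf, R35A levels were likewise above the wild type at 18 hpi and below it at 120 hpi. Unlike Nlrp3, both had risen in wild-type cells by 18 hpi. Nlrp3 was picked for these times because of its values, so the likeness is a description only. Of 8 genes that act on cytokine mRNA decay or restrain the signal, 6 rose at 1 hpi and 8 at 120 hpi in wild-type cells, against the same shares of all genes. Socs3, an inhibitor of gp130 signalling, went from 16.3 to 90.8 and then 373 CPM, Zc3h12a, an RNase of cytokine mRNAs, from 16.5 to 35.9 and 255 CPM, and Zfp36, whose product binds AU-rich elements of cytokine mRNAs such as that of Tnf, from 113 to 214 and 1611 CPM. At 18 hpi 6 of these 8 were higher in R35A than in wild-type cells, where 10.1% of all genes differed.

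Partner subunits and related cytokines moved in both directions. Of 13 tested, 6 rose and 3 fell at 1 hpi in wild-type cells (19.9% of all genes called), with a median change of 0.87 on the log2 scale, and 4 rose and 8 fell at 120 hpi (63.3%), with a median of -2.18 against -0.36 over all genes. Ebi3, a subunit of IL-27, went from 0.216 to 43.1 CPM, and Il27 and Il23a, which were at 0 and 0.0366 CPM at 0 hpi, reached 1.77 and 1.28 CPM. Il33 went from 18.9 to 0.0401 CPM, Il12a from 11.8 to 0.168 CPM and Il11 from 4.30 to 0.0802 CPM, at or under the floor at 120 hpi. Il33 and Il11 are also expressed by fibroblasts, and 9 of the 10 feeder markers fell in the same comparison, by a median of 4.07 on the log2 scale. Their part in these changes was not tested. With Il12a and Il12b both at or near the floor at 120 hpi in wild-type cells, neither subunit gene of IL-12 was detected above it at this depth.

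The genes most like each member were sought over the 18 group means of the log2 tables, among 15100 genes, by Pearson correlation. They share libraries with the members and are given as a description. Tnf was closest to Nfkbia (r = 0.990), the gene of the NF-kB inhibitor IκBα, then to Slfn2 and Litaf (0.987 and 0.986). Il6 was closest to Socs3 (0.980), Tnfsf14 (0.979) and Cebpd (0.977), and Il1b to the chemokine gene Ccl2 (0.985), Plaur (0.984) and Cd83 (0.982). Il1rn was closest to Hk3, Emilin2 and the integrin gene Itgam (0.997 each), and Osm to Ctsc (0.996), Atg7 and Wdr41 (0.993 each). Il10 was closest to Gusb (0.992), Rgl2 and Acvr1b (0.991 each), and Il1a to F5, Siglece and Mtmr6 (0.989, 0.988 and 0.987). Il18 was closest to Sh3bp5 (0.990), 9930111J21Rik2 (0.980) and Fgd2 (0.976), and Tgfb1 to Nlrp1a (0.990), Mbp and Ube2q1 (0.986 each). Among the members, Il18 was least like the others, with r = 0.35 to Il6 and 0.463 to Il1rn, while Il1a and Il1rn had r = 0.980.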

How the data were processed

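The deposited count tables hold whole-number read counts per gene for 40354 genes, not normalized. According to the study's methods and the submitters' processing notes, the authors prepared stranded libraries, aligned reads to mm10 with STAR 2.5.0a, counted them with STAR and normalized with DESeq2 1.14.1. The annotation release and the strand counted are not given in the sources used here. The deposited log2 tables hold 19067 genes, 9 of the 10 members among them, and each value equals the log2 of the count over the library's size factor plus 1, within 5.3e-14. The wild-type and R35A libraries share tables, the R35K libraries have their own, and 0 columns were left unused.

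Counts were fitted in R 4.3.3 with edgeR 4.0.16 (TMM, filterByExpr, quasi-likelihood F tests). The fits were over the 24 wild-type and R35A libraries (16988 genes) and the 12 R35K libraries (16434 genes). For the R35K change against the wild-type change, all 36 were fitted (17277 genes). Calls needed 1.5-fold (0.585 on the log2 scale) and an adjusted p (Benjamini-Hochberg) no greater than 0.05. The study's methods do not say whether p was adjusted. Levels are CPM with TMM factors over the 36 libraries. Depth was 13044456 to 23131776 counts per library, median 15471229.5, and the floor of 3 counts covers counting error only. p-values rest on the spread between the 2 biological replicates within groups, estimated over all groups of a fit and not from the compared groups alone. Coordinates and exons are from GENCODE vM21 (mm10). The fits were tested on simulated data.

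Replicate numbers were checked as a pairing with 11903 genes, by correlating the gap between replicates in 1 group with that in another. The median r of 153 such correlations was -0.01 (-0.4 to 0.26, 6 above 0.1), so replicates were treated as unpaired.

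All 10 members are named. From each related list, up to 3 genes with the largest rise and 3 with the largest fall from 0 to 120 hpi in wild-type cells are named, and Nlrp3 is given at further times because of its values. For likeness, the 3 genes with the highest r are named. The members and lists were chosen with earlier results of these data known. Alternatives were a DESeq2 1.42.0 Wald test, its size factors in edgeR, other filters, a 2-fold threshold, unadjusted p, fits of the compared groups alone or all libraries, a replicate block, the other contrast between constructs, and leaving out each library.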

Additional observations from a re-analysis of the deposited data

Results flagged for a closer look

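The change from 0 hpi differed between a mutant and the wild type for 7 of the 9 tested members in at least 1 mutant, by interaction tests in edgeR. The R35A test used the 24 wild-type and R35A libraries, and the R35K test used all 36. A member is counted if any timepoint of either mutant was called. By the R35K test 10% to 13.3% of all genes were called at a timepoint, and the share for the R35A test is not given here. For each, the timepoint with the smallest p is given here, as mutant change minus wild-type change on the log2 scale. In R35A cells the difference was 3.86 for Tnf at 3 hpi (adjusted p = 1.78e-22), 3.31 for Il1b at 18 hpi (0.000931), 1.95 for Il1rn at 3 hpi (1.07e-11), 1.81 for Il6 at 18 hpi (2.98e-08), 1.64 for Osm at 18 hpi (1.68e-11) and 1.36 for Il18 at 3 hpi (0.00012). In R35K cells it was 4.50 for Il1b at 3 hpi (0.00038), 3.40 for Tnf at 6 hpi (9.73e-22), 2.59 for Osm at 18 hpi (1.23e-18), 2.43 for Il1rn at 6 hpi (1.89e-15), 2.03 for Il18 at 6 hpi (7.64e-09), 1.60 for Il6 at 3 hpi (1.04e-07) and 0.72 for Tgfb1 at 18 hpi (5.53e-14). Both mutants are compared with the same wild-type libraries. The Il1b values rest on 0 to 4 counts per library at 0 hpi. R35K and its separate tables cannot be told apart.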

How the results depend on the processing

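There were 203 called values of single members. Of their 2740 values under the alternatives, 2671 kept their direction and their side of the thresholds. The direction only was kept by 69, and 0 reversed. With unadjusted p no call could be lost by construction. That setting and the 2-fold threshold reuse the main log2 values, so neither could reverse a direction. With a replicate block the member calls were 37 in wild-type, 41 in R35A and 40 in R35K cells against 0 hpi, as without it, and the block changed no call. Leaving out 1 library gave 35 to 38, 37 to 41 and 39 to 41 of these calls, 26 to 27 against 27 between 18 and 120 hpi, 31 to 33 against 33 between R35A and wild-type levels, and 23 to 26 against 25 for the R35K change. Of the 29 values that lost their call without 1 library, 15 were of Il10 and 8 of Il18. Il10 in R35A cells against 0 hpi was lost at 1 hpi without any 1 of the 4 libraries of 0 and 1 hpi (log2 1.43 or less), at 6 hpi without replicate 2 of 0 hpi (1.29) or replicate 1 of 6 hpi (0.93), and at 18 hpi without either library of 0 hpi (1.44 and 1.11) or replicate 2 of 18 hpi (0.68). Il10 in wild-type cells at 18 hpi was lost without replicate 1 of 0 hpi (1.42) or of 18 hpi (1.66), and for R35A against wild-type levels at 3 hpi without wild-type replicate 2 (1.34) and at 6 hpi without R35A replicate 1 (0.86) or either wild-type library (1.12 and 1.75). The same difference of Il18 was lost at 1 hpi without wild-type replicate 2 (0.69), at 6 hpi without R35A replicate 2 or either wild-type library (0.74 to 0.83) and at 120 hpi without R35A replicate 2 (0.58). It was also lost in R35A cells at 18 hpi without replicate 2 of 0 hpi (-0.58), in R35K cells at 6 hpi without replicate 1 (-0.56) and for the R35K change at 120 hpi without wild-type replicate 2 of 0 hpi (0.51). The others were Il1a in wild-type cells at 6 hpi without replicate 1 of 0 hpi (1.72), the R35K change of Il1b at 1 hpi without replicate 2 of either 0 hpi group (2.92 and 3.47), Tgfb1 in wild-type cells at 18 hpi without replicate 1 (-0.57) and in R35K cells from 18 to 120 hpi without replicate 1 of 18 hpi (0.57), and Tnf for R35A against wild type at 120 hpi without wild-type replicate 1 (-0.58). In the other direction, Tnf in wild-type cells at 3 hpi was called without replicate 1 of 0 hpi or replicate 2 of 3 hpi (0.62 and 0.60), and Osm at 18 hpi without replicate 2 of 0 or 18 hpi (0.70 and 0.63), with DESeq2's size factors and with its Wald test (0.64 each). Without WT replicate 1 of 0 hpi the R35K change of Osm at 120 hpi was called (0.63), and without R35K replicate 2 of 0 hpi that of Tnf (-0.60). No filter on low counts lost 5 calls (4 of Il10, and Tnf for R35A against wild type at 120 hpi), and a 2-fold threshold 21. The Wald test lost Il10 for R35A against wild type at 6 hpi. The fall of Tgfb1 at 18 hpi in wild-type cells was lost with DESeq2's size factors and Wald test (-0.49), and these factors moved the median of all genes there by 0.115. They moved it by 0.158, 0.129 and 0.136 at 120 hpi in wild-type, R35A and R35K cells. Testing the R35A change in place of the level gave 25 calls in place of 33, and testing the R35K level gave 35 in place of 25; the change of Il1a in R35A cells was not called at 1, 3, 6 or 18 hpi (1.32, 2.64, 1.77 and 2.62, SE 1.16 to 1.21), nor that of Il1b at 1, 6 or 120 hpi (1.85, 1.91 and -0.69) or of Il10 at 3 or 6 hpi (0.85 and 0.27), and that of Il6 at 120 hpi was called (0.74). Depth limits Il12b throughout, Il10 up to 18 hpi, and Il1a and Il1b at 0 hpi.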
